A study of Homo sapiens with 4 samples.

Results

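Caveolae are flask-shaped pits of the plasma membrane that are abundant in smooth muscle, endothelium and fat. Caveolins insert into the inner leaflet of the membrane and form the scaffold of the pit, the cavins assemble on it as a cytosolic coat, and accessory proteins shape the neck. CAV1 and PTRF (now CAVIN1) are each required for caveolae outside striated muscle, and caveolae flatten when the membrane is stretched. The 7 genes of this structure were described here, chosen by name: the caveolins CAV1 and CAV2, the cavins PTRF, SDPR (CAVIN2) and PRKCDBP (CAVIN3), the neck ATPase EHD2 and the membrane-bending F-BAR protein PACSIN2. All 7 were found among the 23577 genes used, and all 7 were among the 13713 that reached an FPKM of 1 in some line and are called the kept genes below.

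The study sequenced poly(A) RNA from 4 established human lines of leiomyosarcoma, a cancer that arises from smooth muscle. The lines were RKN, SKLMS1, SKN and SKUT1, each untreated, grown in the same serum-containing medium and represented by 1 library. The labels name no genetic change in any line. Levels are in FPKM, fragments per kilobase normalised to sequencing depth by the authors, so that genes can be compared within a line. With 1 library per line there is no replicate spread, no test was possible, and every difference below is a size only.

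Smooth muscle markers were present to very different degrees. The summed FPKM of 8 such markers was 6294 in SKUT1 and 844 in SKLMS1, with 205 in RKN and 97.8 in SKN, and MYH11, the smooth muscle myosin heavy chain, was at most 1.15 and DES, desmin, at most 1.10 in any line. Markers of other caveola-rich cells were near 0. Among 5 endothelial markers PECAM1, CDH5 and VWF reached at most 0.293, with the exceptions of KDR at 4.91 in SKN and EMCN at 3.33 in RKN, and the 5 adipocyte markers were at most 0.841, with ADIPOQ listed at 0 in all 4 lines. Leukocyte markers (at most 1.64) and skeletal muscle markers (at most 0.518) were low, as were the epithelial EPCAM (at most 1.80) and CDH1 (at most 1.20), while the keratins KRT8 and KRT18 reached 268 in SKLMS1 and 283 in SKN. Depth, estimated from the table, was between 24400000 reads (SKUT1) and 33600000 (RKN).

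The promoters of CAV1, CAV2 and SDPR are shown because the first pair are neighbouring genes whose levels ordered the lines differently, while SDPR was the member with the lowest level in SKLMS1, SKN and SKUT1. Each runs from 250 bases before to 50 bases after the most upstream start in the RefSeq annotation of GRCh38.p14, a later build than the one the data were mapped to. Of the 7 members, 5 had an entry, all but PTRF and PRKCDBP. Capitals mark GGGCGG, the core of an Sp1 site, or CATTCC, the core of a TEAD site, on either strand.
CAV1, chr7:116524759-116525058, plus strand: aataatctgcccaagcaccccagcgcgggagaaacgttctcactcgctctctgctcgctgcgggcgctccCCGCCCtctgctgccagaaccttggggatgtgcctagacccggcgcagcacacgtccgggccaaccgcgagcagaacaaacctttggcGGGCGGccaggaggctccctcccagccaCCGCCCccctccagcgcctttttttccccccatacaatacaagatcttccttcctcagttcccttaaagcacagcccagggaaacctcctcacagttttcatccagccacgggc
CAV2, chr7:116499488-116499787, plus strand: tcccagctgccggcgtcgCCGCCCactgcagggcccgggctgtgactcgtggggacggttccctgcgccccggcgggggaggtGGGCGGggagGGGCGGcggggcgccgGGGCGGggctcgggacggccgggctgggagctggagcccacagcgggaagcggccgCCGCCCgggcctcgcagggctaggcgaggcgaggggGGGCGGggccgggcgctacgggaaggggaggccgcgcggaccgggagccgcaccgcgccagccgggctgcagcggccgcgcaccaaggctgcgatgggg
SDPR, chr2:191847039-191847338, minus strand: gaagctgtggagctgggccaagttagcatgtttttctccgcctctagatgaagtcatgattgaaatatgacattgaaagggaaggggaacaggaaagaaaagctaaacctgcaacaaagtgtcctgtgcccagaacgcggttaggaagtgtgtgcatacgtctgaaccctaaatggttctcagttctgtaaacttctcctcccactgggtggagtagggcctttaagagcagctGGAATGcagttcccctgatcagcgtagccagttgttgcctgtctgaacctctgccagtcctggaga

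The CAV1 promoter held GGGCGG 3 times, that of CAV2 6 times, that of EHD2 1 time, that of PACSIN2 2 times and that of SDPR 0 times, and 44.5% of all 27305 promoters, 1 per gene, held it at least once. CATTCC was found 1 time in the SDPR promoter and in none of the other 4, against 14.1% of all promoters. Neither the CArG box, the site of serum response factor in smooth muscle genes, nor TGAGTCA, the AP-1 site, was found in any of the 5 windows, and 1.29% and 4.90% of all promoters held them. CG pairs numbered 43 in the CAV2 promoter, 30 in that of EHD2, 27 in that of PACSIN2, 19 in that of CAV1 and 5 in that of SDPR, with a median of 13 over all promoters. CAV2 thus had more CG pairs than 95.1% of promoters and SDPR more than 30.5%. These are letters in a window and were not measured as binding or methylation.

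CAV1 was among the most abundant transcripts of every line and was highest in SKUT1. It encodes caveolin-1, the main scaffold protein of non-muscle caveolae. Its FPKM was 132 in RKN and 202 in SKLMS1, with 205 in SKN and 596 in SKUT1, which placed it at rank 517, 362, 354 and 154 of the 23577 genes. SKUT1 was 2.90-fold above SKN, the next line, and 4.50-fold above RKN, the lowest. SKLMS1 and SKN lay so close that they exchanged places when columns were rescaled to TPM (409 and 381). In bulk RNA of a line, fewer expressing cells and less RNA per expressing cell cannot be told apart.

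CAV2 did not follow its neighbour. It encodes caveolin-2, which pairs with caveolin-1 and needs it to leave the Golgi. Its FPKM was 22.8 in RKN and 98.5 in SKLMS1, with 16.9 in SKN and 73.2 in SKUT1. SKLMS1 and SKUT1 formed an upper pair 1.35-fold apart, and RKN and SKN a lower pair, with a 5.84-fold difference between SKLMS1 and SKN. Between SKLMS1 and SKN, where CAV1 differed by 0.02 on the log2(FPKM + 1) scale, CAV2 differed by 2.48.

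Because the columns have unequal sums, the ratio of both caveolins within a line is the comparison that no rescaling of whole columns can move. CAV1 exceeded CAV2 in every line, by 2.05-fold in SKLMS1, 5.80-fold in RKN, 8.14-fold in SKUT1 and 12.2-fold in SKN. CAV1 thus made up 67.2% of the summed caveolin FPKM in SKLMS1 and 92.4% in SKN, with 85.3% in RKN and 89.1% in SKUT1. CAV3, the muscle caveolin, was listed at 0 in RKN, SKN and SKUT1 and was 0.0287 in SKLMS1.

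**Figure D1:**
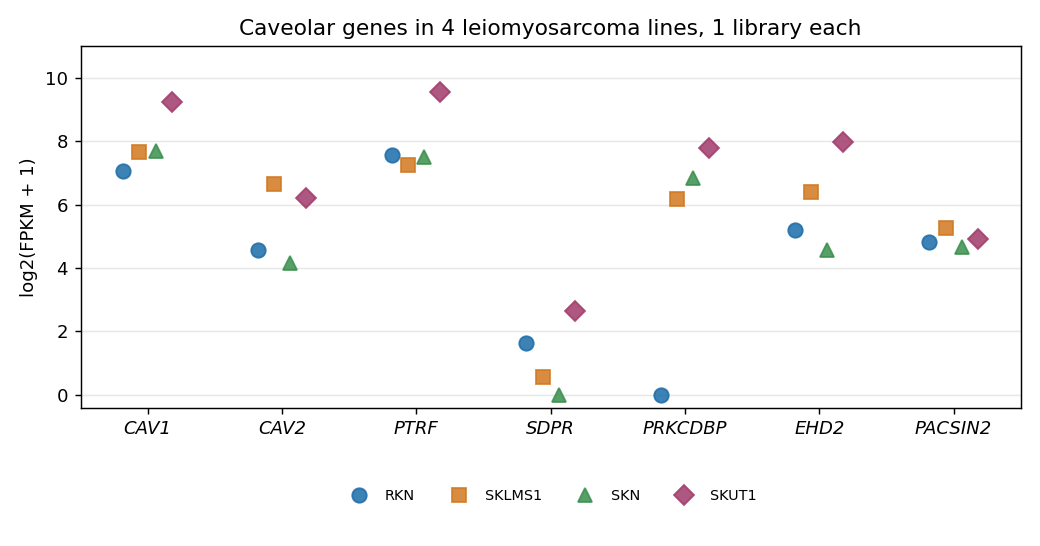
Level of each of the 7 caveolar genes, as log2(FPKM + 1) on the vertical axis, in RKN (circles), SKLMS1 (squares), SKN (triangles) and SKUT1 (diamonds), 1 library each and no error bars. SKUT1 is the top point for CAV1 (9.22), PTRF (9.55), SDPR (2.66), PRKCDBP (7.77) and EHD2 (7.97), while the 4 lines nearly coincide for PACSIN2 and PRKCDBP in RKN and SDPR in SKN sit at 0.

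PTRF was the most abundant cavin in all 4 lines and was highest in SKUT1. It encodes cavin-1, the subunit that forms the coat trimers and without which caveolae do not form. Its FPKM was 190 in RKN and 152 in SKLMS1, with 181 in SKN and 747 in SKUT1. The 3 lower lines lay within 1.25-fold of each other, and SKUT1 stood 3.94-fold above RKN, the next line. In RefSeq order STAT3 lies next to PTRF on 1 side (31.9 in RKN and 24.5 in SKLMS1, with 16.5 in SKN and 37.6 in SKUT1) and ATP6V0A1, a subunit of the vacuolar proton pump, on the other (6.84, 4.27, 3.92 and 14.9), and both were also highest in SKUT1.

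CAV1 and PTRF were close to equal within a line. The ratio of CAV1 to PTRF was 0.698 in RKN and 0.798 in SKUT1, with 1.13 in SKN and 1.33 in SKLMS1, so it spanned less than the range of CAV1 (4.50-fold) or PTRF (4.91-fold) across the lines. Of the 7 genes these were the pair with the most similar profile, at a Euclidean distance of 0.74 between the profiles of log2(FPKM + 1) over the 4 lines, each centred on its own mean. That closeness was not rare, since 396 of 8231 other genes that reached an FPKM of 10 in some line lay nearer to CAV1, and 193 lay nearer to PTRF.

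PRKCDBP split RKN from the other lines. It encodes cavin-3, a protein kinase C delta binding protein that joins the cavin coat and is described as silenced in several tumours. It was listed at 0 in RKN and had an FPKM of 71.2 in SKLMS1, 115 in SKN and 217 in SKUT1. Its neighbours in RefSeq order had other profiles. CCKBR, the cholecystokinin B receptor gene on 1 side, was at most 0.0300 in any line, and SMPD1, acid sphingomyelinase, on the other was 10.3 in RKN and 17.7 in SKLMS1, with 12.4 in SKN and 98.6 in SKUT1.

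A listed 0 can be a failed estimate, so no fold is given for it. Of 1083 genes that reached an FPKM of 50 in SKLMS1, SKN and SKUT1 alike, 2 were listed at 0 in RKN, namely PRKCDBP and TINAGL1, a matrix glycoprotein gene. Another 6 of the 1083 were above 0 and below 1 there. The equivalent number listed at 0 was 0 of 985 in SKLMS1, 2 of 995 in SKN (MIR614 and SNORD99, chosen after their values were seen) and 11 of 1091 in SKUT1, all of which carry names of microRNA or small nucleolar RNA genes. Whether the 0 of PRKCDBP in RKN is such a failure was not tested.

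SDPR was the low member of the coat. It encodes cavin-2, which binds phosphatidylserine and promotes membrane curvature. Its FPKM was 2.12 in RKN, 0.469 in SKLMS1 and 5.32 in SKUT1, and it was listed at 0 in SKN. At the estimated depth and for its single GENCODE transcript of 3229 bases, these values correspond to 216 reads in RKN, 43.6 in SKLMS1 and 394 in SKUT1, and 1 read in SKN would have given 0.0131. The neighbours in RefSeq order were TMEFF2, a transmembrane protein gene, at most 0.243 in any line, and NABP1, a single-strand DNA binding protein gene, which was highest in SKN (21.9) and lowest in RKN (5.69).

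The shares of the cavin genes in their summed FPKM differed between lines. PTRF made up 98.9% of the sum in RKN, where PRKCDBP enters as its listed 0, and 77.0% in SKUT1, with 68.0% in SKLMS1 and 61.2% in SKN. PRKCDBP made up 22.4% in SKUT1, 31.8% in SKLMS1 and 38.8% in SKN, and SDPR at most 1.11% in any line. The summed caveolins were 1.34-fold the summed cavins in SKLMS1, against 0.810 in RKN, 0.751 in SKN and 0.690 in SKUT1, so SKLMS1 was the line with more caveolin than cavin RNA. MURC (CAVIN4), the muscle cavin, was 0.624 in RKN and 0.831 in SKLMS1, with 0.716 in SKN and 1.05 in SKUT1.

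**Figure D2:**
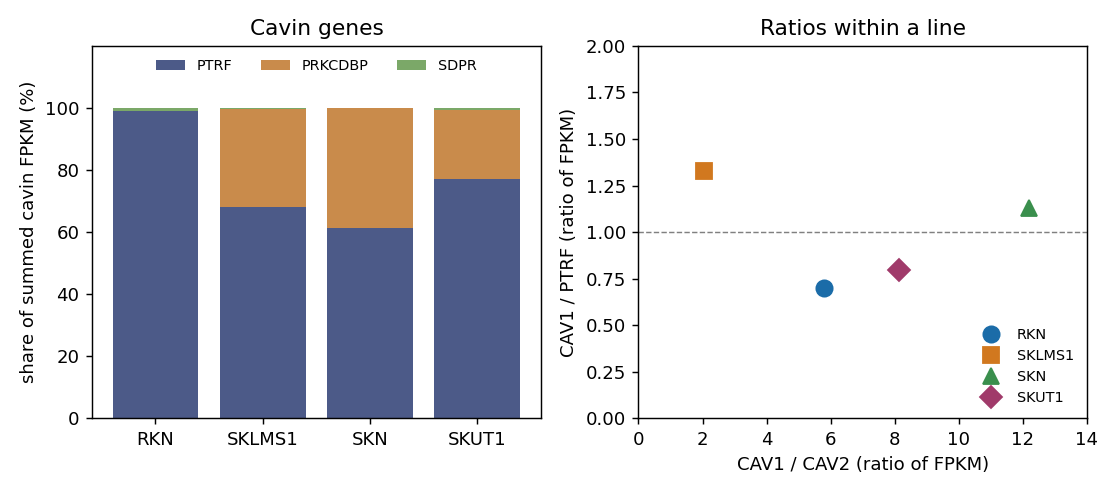
Left, share of each cavin gene in the summed cavin FPKM of a line, in percent. Right, ratio of CAV1 to CAV2 (horizontal axis) against ratio of CAV1 to PTRF (vertical axis, dashed line at 1), 1 point per line. PTRF is nearly the whole bar in RKN (98.9%, with PRKCDBP listed at 0, which may be a failed estimate) and 61.2% in SKN, and the CAV1 to CAV2 ratio runs from 2.05 in SKLMS1 to 12.2 in SKN while the CAV1 to PTRF ratio stays between 0.698 and 1.33.

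EHD2 had the widest range among the members measured above 0 in all lines. It encodes an ATPase that oligomerises at the neck of caveolae and holds them at the surface. Its FPKM was 35.9 in RKN and 83.1 in SKLMS1, with 22.6 in SKN and 249 in SKUT1, an 11.1-fold range. This order, from SKUT1 over SKLMS1 and RKN to SKN, was shared by 5 of the 8 smooth muscle markers and by 4.91% of the kept genes. Among the 4 markers of widest range it was that of the actin ACTA2 (1085, 127, 84.7 and 1.37), the actin-binding TAGLN (3816, 531, 45.5 and 5.82) and calponin, CNN1 (86.4, 29.6, 2.45 and 0.228), but not of caldesmon, CALD1, which was 1246 in SKUT1 and 131 in SKLMS1 and lower in RKN (37.1) than in SKN (44.1). SMTN was highest in SKN (45.6) and DES in RKN. The other markers with the order of EHD2, MYH11 (at most 1.15) and LMOD1 (0.661 in RKN and 0.0523 in SKN), had low levels. Of the 7 members 1 had this order, EHD2 itself. The comparison of orders was not planned, and a link of EHD2 to the smooth muscle markers was not tested. The EHD2 to CAV1 ratio was 0.419 in SKUT1 and 0.412 in SKLMS1, with 0.271 in RKN and 0.110 in SKN.

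Within the EHD family the leading gene changed. EHD2 took 67.8% of the summed EHD FPKM in SKUT1, 56.5% in SKLMS1 and 39.4% in RKN, and 13.9% in SKN, where EHD4 (76.5) and EHD1 (56.0) exceeded it. EHD1 and EHD4 serve the recycling endosome. EHD4 was 23.5 to 31.7 in the other lines, and EHD1 was 28.9 in RKN, 26.1 in SKLMS1 and 78.7 in SKUT1. EHD3 was the least abundant in all 4 lines (2.79 to 9.31).

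PACSIN2 was the steady member. It encodes syndapin-2, an F-BAR protein that bends membrane at caveolae and at other endocytic sites. Its FPKM was 27.3 in RKN and 37.1 in SKLMS1, with 24.4 in SKN and 29.5 in SKUT1, a 1.52-fold range. It was the one member with a range under 2-fold, as in 32.8% of the kept genes. PACSIN3, the relative found mainly in muscle, was 20.3, 13.5, 27.4 and 20.2 in the same order of lines. It exceeded PACSIN2 in SKN and lay furthest below it in SKLMS1. PACSIN1, the neuronal relative, was 3.50 in RKN, at most 0.00998 in SKN and SKUT1 and listed at 0 in SKLMS1. The ratio of CAV1 to PACSIN2 was 20.2 in SKUT1 and 8.42 in SKN, with 5.44 in SKLMS1 and 4.85 in RKN.

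SKUT1 had the highest levels over the group as a whole. It was the highest line for 5 of 7 members, where 30.8% of the kept genes were highest in SKUT1, and exceeded each other line by at least 2-fold (1 on the log2(FPKM + 1) scale) for 4 of 7, CAV1, PTRF, SDPR and EHD2, against 9.96% of genes. SDPR passed by little (1.02) and fell short after rescaling to TPM (0.74), after quantile normalization (0.90) and with a pseudocount of 5 (0.54). Each left 3 of 7, against 8.30%, 8.47% and 6.75% of genes in that order. Relative to the mean of the other 3 lines, 6 of 7 were at least 2-fold higher (17.9% of genes) and none lower (13.1%), with a median of 1.93 over the members against -0.03 over all genes. Rescaling to TPM left 5 of 7, since CAV2 fell from 1.09 to 0.78, and moved PACSIN2 from 0.02 to -0.31. Quantile normalization also left 5, with CAV2 at 0.88. A pseudocount of 5 left 4, with CAV2 at 0.97 and SDPR at 0.83. The shares of all genes were not computed for these settings. Rescaling to TPM moved the median of all genes to -0.31 in SKUT1 and to 0.24 in RKN. The members other than PACSIN2 stayed above that median in SKUT1. The 7 genes summed to an FPKM of 1917 in SKUT1, 0.309% of the column, and to 0.0918% of it in RKN, 0.130% in SKLMS1 and 0.105% in SKN. The smooth muscle marker sum was also highest in SKUT1 and its part in this was not tested.

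RKN lay lowest by the median, -1.10 against -0.04 over all genes. PRKCDBP was the one member at least 2-fold lower under each of the 4 scalings. Its listed 0 in RKN stays 0 under any scaling, so this was fixed in advance and is no check. The place of RKN below SKN rested on the comparison lines, since RKN had -0.27 and SKN -0.37 without SKUT1, and RKN -0.95 and SKN -1.05 without SKLMS1. Of the 7 members 4 lay 2-fold or more under the mean of the rest (16.6% of genes), CAV1 at -1.13, CAV2 at -1.10, EHD2 at -1.10 and PRKCDBP, and none was above (11.6%). After rescaling to TPM 1 member was below, PRKCDBP, as after quantile normalization, and on the TPM scale SDPR was above by 1.11. The shares of all genes were not computed for these scalings. PTRF in RKN was the second highest of the 4 lines.

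SKN was the lowest line for CAV2, SDPR, EHD2 and PACSIN2, 4 of 7 against 20.9% of genes, and 3 of 7 lay 2-fold or more under the mean of the rest (10.8%). At least 2-fold above that mean were PRKCDBP in SKN (1 of 7, 9.97% of genes) and CAV2 and PRKCDBP in SKLMS1 (2 of 7, 10.7%). These PRKCDBP differences rest on the listed 0 in RKN. Among the other lines SKLMS1 had the lowest level (71.2), and SKN (115) lay 1.61-fold above it and below SKUT1 (217). No member was at least 2-fold below the others in SKLMS1 (9.83% of genes). The medians over the members were 0.45 in SKLMS1 and -0.62 in SKN, against -0.06 and -0.05 over all genes, and the comparisons of a line with the other 3 share their libraries. The direction of the SKLMS1 median did not hold, at -0.78 without RKN, -0.19 without SKN and -0.02 against the median of the other 3 lines.

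**Figure D3:**
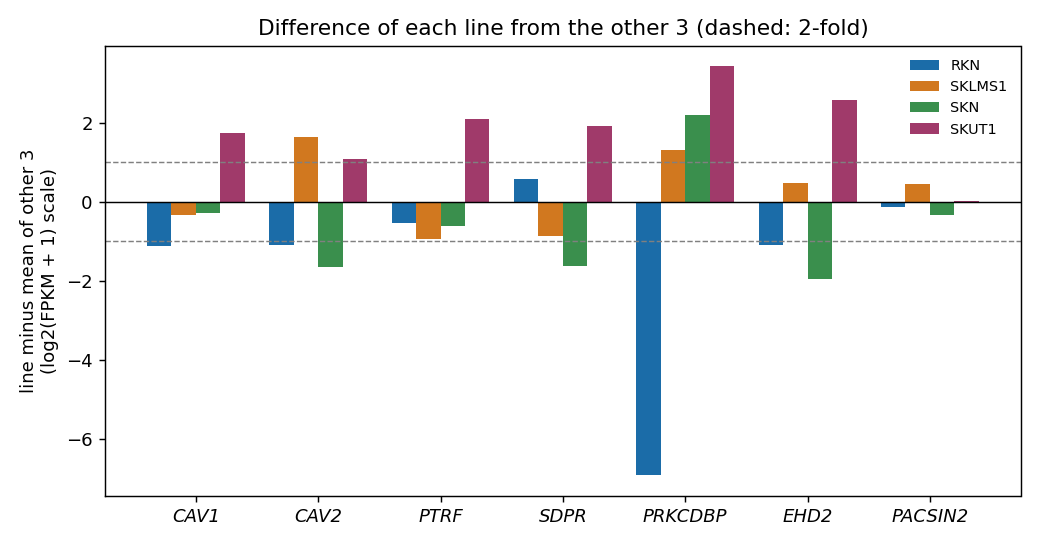
Difference of each line from the mean of the other 3 on the log2(FPKM + 1) scale, by gene, with dashed lines at 2-fold in either direction and 1 library per line. The SKUT1 bars pass the upper line for 6 genes and lie at 0.02 for PACSIN2, and the RKN bar of PRKCDBP reaches -6.93 because the gene is listed at 0 there.

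By pairs of lines, RKN and SKUT1 differed by at least 2-fold for 6 of 7 members (40.7% of the kept genes), all higher in SKUT1 (22.9%). SKLMS1 and SKUT1 differed for 5 (33.2%), all higher in SKUT1 (18.2%), and so did SKN and SKUT1 (33.5%, with 18.4% higher in SKUT1). RKN and SKLMS1 differed for 4 (29.2%), with CAV2, EHD2 and PRKCDBP higher in SKLMS1 (16.1%) and SDPR in RKN (13.1%). SKLMS1 and SKN differed for CAV2 and EHD2, both higher in SKLMS1 (2 of 7, against 23.6% apart and 12.3% higher in SKLMS1). RKN and SKN differed for SDPR and PRKCDBP (2 of 7, against 28.8%), each of which was listed at 0 in 1 line of the pair. The last 2 shares are near the background.

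Across the lines 6 of 7 members ranged over at least 4-fold, against 26.7% of the kept genes, with a median range of 2.48 against 1.31 on the log2(FPKM + 1) scale. After rescaling to TPM 4 of 7 did (34.7% of genes), as CAV1 (1.69) and PTRF (1.97) fell short of 2, and after quantile normalization the same 4 did (26.9%), with CAV1 at 1.53 and PTRF at 1.81. With a pseudocount of 5 it was 5 of 7 (12.4%), since SDPR fell to 1.05. A wide spread was not particular to the members. The 14 measured receptors, channels and enzymes found in caveolae also had a median range of 2.48, and 9 passed 4-fold. The 8 smooth muscle markers had a median range of 4.48, and 5 passed 4-fold. The clathrin coat, the other main coat of endocytic pits, had a smaller median range of 1.08, and 3 of its 16 genes passed 4-fold. Those 3 were FCHO1, a nucleator of clathrin pits (13.0 in RKN and at most 1.41 elsewhere), PICALM, a clathrin assembly protein (201 in SKUT1 and 31.7 to 52.4 elsewhere), and the light chain CLTB (162 in SKUT1 and 35.2 to 60.5 elsewhere). CLTC, the heavy chain, was 35.1 in RKN and 76.2 in SKLMS1, with 74.4 in SKN and 134 in SKUT1. In SKUT1 5 of the 16 were at least 2-fold above the mean of the other 3 lines (17.9% of all kept genes) and 1 below it (13.1%), with a median of 0.52 against -0.03 over all genes.

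Other membrane microdomain genes and the homologues had median ranges near that of all genes. Among 8 measured flotillin, stomatin, erlin and prohibitin genes the median range was 1.28 and 2 passed 4-fold, near the 26.7% of all kept genes. They were STOM, stomatin (18.8 in RKN and 8.14 in SKLMS1, with 7.81 in SKN and 67.6 in SKUT1), and STOML1 (2.53, 7.89, 5.53 and 17.3). STOML2, a mitochondrial relative, went the other way, at 60.1 in SKUT1 and 135 to 175 elsewhere, and ERLIN2 of the endoplasmic reticulum was 24.6 in SKUT1 and 9.03 in SKN. FLOT1 was listed at 0 in all 4 lines, beside FLOT2 at 28.3 to 36.4, and is not counted (both chosen after their values were seen). Whether the 0 of FLOT1 is a failed estimate was not tested. Of 6 measured homologues (EHD, PACSIN and MURC) 1 passed 4-fold, PACSIN1, against 26.7% of all kept genes, and the median range was 1.50.

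**Figure D4:**
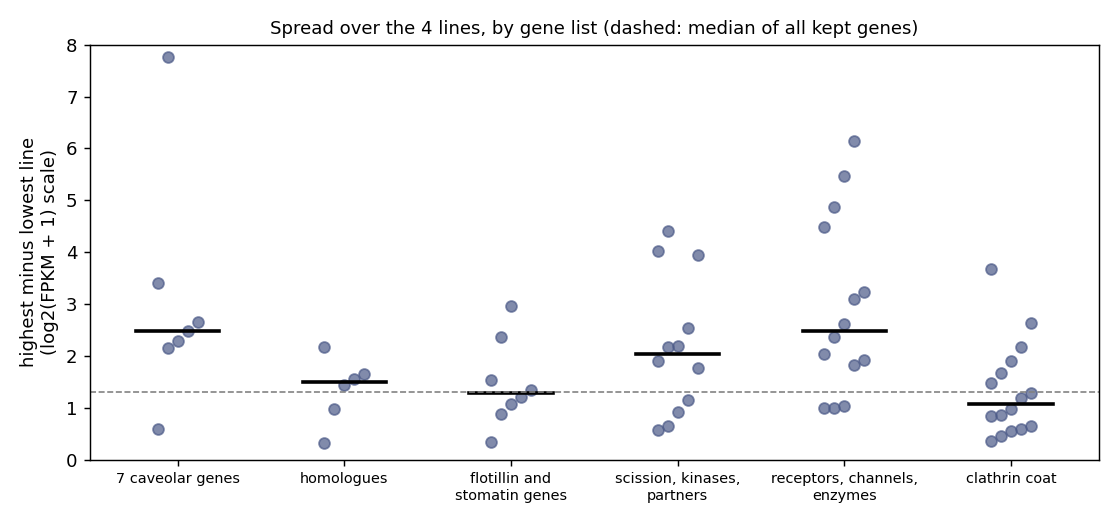
Highest minus lowest line on the log2(FPKM + 1) scale for each kept gene, by list, with black bars at list medians and a dashed line at the median of all kept genes (1.31). The 7 caveolar genes have a median of 2.48, as do the receptors, channels and enzymes, and the clathrin coat genes have 1.08. PACSIN2 (0.59) and PRKCDBP (7.77) are the ends of the caveolar column.

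Genes whose proteins act on caveolae differed by gene. Of 12 measured scission, kinase and partner genes 6 passed 4-fold, against 26.7% of all kept genes (median range 2.04). In SKUT1 4 were at least 2-fold above the mean of the other 3 lines (17.9% of all kept genes). In RKN 4 were at least 2-fold below it (16.6%). FYN, a SRC family kinase that phosphorylates caveolin-1, was 1.92 in RKN and 12.3 in SKLMS1, with 26.0 in SKN and 60.4 in SKUT1, and SRC itself was 84.2 in SKN and 13.6 to 17.7 elsewhere. ROR1, a receptor that binds caveolin-1 and cavin-1, was 20.9 in SKUT1 and at most 2.45 elsewhere. DNM1, a dynamin, was 26.0 in SKLMS1, 6.28 in RKN and at most 1.82 in the others. Its ubiquitous relative DNM2 (chosen after its values were seen) was also highest in SKLMS1, at 136 against 35.7 to 45.2.

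Receptors, channels and enzymes found in caveolae had their lowest median in RKN. Of 14 measured genes 8 lay 2-fold or more under the mean of the rest there (16.6% of all kept genes) and none above it (11.6%). The median was -1.30 against -0.04 over all genes. In SKUT1 7 were above (17.9%) and 1 below (13.1%), with a median of 1.10 against -0.03. Among those above, AQP1 (4.19), CD36 and KCNJ8 (2.52) reached an FPKM of 1 in SKUT1 only. They were kept through that line, so they add no support to its count or median. TGFBR2, a TGF-beta receptor, was 0.864 in RKN and 21.3 in SKLMS1, with 73.2 in SKN and 81.6 in SKUT1. PDGFRB, a PDGF receptor, was 33.7 in SKLMS1 and 70.7 in SKUT1 and at most 1.60 in RKN and SKN, the split that CAV2 also showed. CD36, a fatty acid receptor, was 21.5 in SKUT1 and at most 0.222 elsewhere, and GUCY1B3, a subunit of the nitric oxide receptor, was 38.0 in SKLMS1 and at most 1.37 elsewhere.

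On chromosome 7 the genes around the caveolins showed other orders again. TES, a focal adhesion protein gene beside CAV2, was 58.0 in RKN and 65.4 in SKLMS1, with 14.9 in SKN and 67.1 in SKUT1, so SKN was lowest as for CAV2. MET, the hepatocyte growth factor receptor gene beside CAV1, was lowest in SKUT1 (9.72, and 24.1 in SKN, 40.3 in RKN and 42.2 in SKLMS1), where CAV1 was highest. CAPZA2, an actin capping subunit gene next to it, was 66.3, 61.9, 39.4 and 84.0 in RKN, SKLMS1, SKN and SKUT1, and TFEC on the far side of TES was at most 0.0201. Among the other neighbours, GLTSCR2 (NOP53) beside EHD2 was highest in SKN at 133, where EHD2 was lowest, and A4GALT, a glycosphingolipid synthase gene next but one to PACSIN2, had 3.22 in RKN and 10.5 in SKLMS1, with 2.46 in SKN and 30.6 in SKUT1. Further neighbours by a place or 2 were STAT5A (0.198 to 5.32) and NAGLU (8.50 to 45.1) at PTRF, SLC39A10 (6.15 to 22.1) at SDPR, CNGA4 (at most 0.120) and APBB1 (6.80 to 22.8) at PRKCDBP, GLTSCR1 (1.49 to 3.99), SEPW1 (115 to 252) and ZNF541 (at most 0.0461) at EHD2, and ARFGAP3 (19.2 to 49.7), TTLL1 (2.72 to 9.07) and BIK (at most 1.98) at PACSIN2.

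The genes whose profile over the 4 lines was nearest to each member, outside the 7, were found by the same distance. For CAV1 they were CALR, the calcium-binding chaperone calreticulin (distance 0.07; 329 in RKN and 489 in SKLMS1, with 500 in SKN and 1383 in SKUT1), TMED3 (0.12) and MEF2A (0.12). For PTRF they were SCFD2 (0.08), SLC38A10 (0.12) and GFPT1 (0.12), and for PACSIN2 the respiratory subunit gene COX4I1 (0.06), PARN (0.07) and PTPLAD1 (0.08). CAV2 was nearest to CHCHD5 (0.16), the sterol regulator INSIG1 (0.34; 18.7, 68.1, 15.8 and 52.6) and LHPP (0.38). EHD2 was nearest to HSD3B7 (0.25), A4GALT (0.27) and KDELR3, a retrieval receptor of the secretory pathway (0.35; 31.5, 93.4, 19.0 and 268).

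SDPR was nearest to IGFBP6 (0.04; 246, 119, 78.4 and 497), TCF4 (0.26) and HHIP-AS1 (0.32). Adding 1 before the log shrinks the differences of so low a gene. SDPR was 11.4-fold higher in SKUT1 than in SKLMS1 and was listed at 0 in SKN, where IGFBP6 was 78.4. The SDPR range ran from 1.05 to 5.76 with pseudocounts of 5 and 0.1, so the 0.04 is no close match of FPKM. PRKCDBP had no close partner, with PLOD2, a collagen lysyl hydroxylase, at 0.90 (0.346 in RKN and 58.2 in SKLMS1, with 65.4 in SKN and 157 in SKUT1), the cytokine gene IL6 at 0.96 and TINAGL1 at 0.97. With 4 points such lists are easily filled, and 10 of the 21 genes named stayed on the list after rescaling to TPM, none for SDPR and all 3 for PACSIN2. The minimum of 10 then applied to the rescaled values, which let in more genes (10160 against 8231 for CAV1). The turnover thus mixes the rescaling with a looser filter.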

How the data were processed

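The authors deposited 1 table of FPKM per gene symbol, 1 column per line. STAR, Cufflinks and hg19 stand in the submitters' processing notes, while versions, annotation and strand setting were not stated. Per the labels' protocols, libraries were stranded, poly(A)-selected and single-end. Of 23610 rows, 28 with a date number for a symbol and 5 with spreadsheet errors were left out. Values were compared as log2(FPKM + 1), which understates differences of low genes, over genes that reached an FPKM of 1 in some line. Depth was estimated from steps of low values of genes with 1 transcript in GENCODE 29, assuming fragments of 200 bases, and 61.0 to 63.5% of 297 to 341 such genes lay within 0.1 of whole reads. The unit was fitted to them, so this is no check, and no counts were recovered.

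Members and lists were chosen with earlier results of these data known. Named genes were the members, up to 4 genes of widest range per list, the 2 nearest protein-coding neighbours on each side (1 is not reported here) and the 3 nearest profiles. Neighbour order and promoters came from RefSeq (GRCh38.p14), where all 7 members matched in the gene table. Alternatives were pseudocounts of 0.1 and 5, TPM, median-of-ratios and quantile scaling, other filters, a 4-fold rule and leaving out lines. The difference of a line from the others was run on simulated data with a shift well above the 2-fold line, so its recovery was built in. The scalings were run on known multiples of 1 column. Other parts of the code were not tested in this way. Python 3.11.15, pandas 2.3.3 and numpy 2.4.6 were used.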

Additional observations from a re-analysis of the deposited data

How the results depend on the processing

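Of 92 recomputed medians and pair counts, 76 met the rule set for them. For a median this was the same direction, within 1.5-fold and on the same side of the 2-fold line. For a pair count, which has no direction, it was a count within 1.5-fold. Only the RKN and SKUT1 medians were 2-fold or more, and neither changed sign. Some settings could change little, since all 7 members pass a minimum FPKM of 5 and the median-of-ratios factors lay between 1 and 1.02. The SKUT1 median of 1.93 stayed between 1.54 and 2.11. The RKN median of -1.10 was -0.82 on the TPM scale, -0.81 after quantile normalization, -0.63 against the median of the other lines, -0.95 without SKLMS1 and -0.27 without SKUT1, so its size rested on SKUT1. That of SKLMS1, 0.45, changed sign to -0.78 without RKN, -0.19 without SKN and -0.02 against the median of the other lines. That of SKN, -0.62, was -1.05 without SKLMS1, -0.37 without SKUT1 and -0.27 against the median of the other lines. Under a 4-fold rule, which counts fewer genes by construction, the pair counts became 2 for RKN and SKLMS1, 1 for RKN and SKN, 3 for RKN and SKUT1, 1 for SKLMS1 and SKN and 2 for SKLMS1 and SKUT1. RKN and SKN gave 1 with a pseudocount of 5 and 0 without members listed at 0. The shares of all genes were not computed for these recounted pairs. The CAV1 range of 2.16 and the PTRF range of 2.29 fell under 4-fold on the TPM scale (1.69 and 1.97) and after quantile normalization (1.53 and 1.81), and that of SDPR ran from 1.05 to 5.76 with pseudocounts of 5 and 0.1. Counts of members under other scalings and pseudocounts, for a line against the mean of the rest, for the range and for the lead of SKUT1, were added after seeing the data. Where no construction is named, the cause was not tested. A filter at an FPKM of 1 against none changes nothing for the 7 members, all of which pass. No paired analysis was possible because each line has 1 library and no test was made. Reads were estimated only for PTRF and SDPR, the members with 1 transcript in GENCODE 29. Of these, the estimated depth limits SDPR, whose level in SKLMS1 rests on 43.6 estimated reads.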
